A study of Homo sapiens with 2 samples.

Results

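The AP-1 transcription factor genes described here are the 10 genes FOS, FOSB, FOSL1, FOSL2, JUN, JUNB, JUND, ATF3, BATF and MAFF, of 19974 protein-coding RefSeq genes on chromosomes 1 to 22 and X. The genes were chosen by name, with earlier results of these data known. Peaks were taken where the summit lay within 1 kb of either annotated end of a gene, and then wherever it lay inside a gene or within 50 kb of it. By that rule 51 of 15186 peaks of the control library and 41 of 10836 peaks of the treated library belonged to these genes. The peaks came from ChIPmentation, a chromatin immunoprecipitation in which Tn5 transposase adds sequencing adapters to the captured chromatin. The cells were PANC-1, an established human line of pancreatic ductal adenocarcinoma. The control sample was treated with the solvent DMSO. The other received inflachromene, a compound reported as a binder of the chromatin proteins HMGB1 and HMGB2. Both were crosslinked with 15 mM EGS for 30 min and with 1% formaldehyde for 10 min, with glycine at 125 mM. What the antibody recognised, how much inflachromene was used and for how long are not stated in the sources used here. Each treatment had 1 sample of 1 cell line, so differences have no replicate check, compare these libraries and not the conditions, and carry no p-value.

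AP-1 is a family of dimers of basic leucine zipper (bZIP) proteins. JUN, JUNB and JUND can pair with each other, whereas FOS, FOSB, FOSL1 and FOSL2 need a JUN partner; ATF3, BATF and the small MAF protein MAFF join the network through the same zipper. Many of these genes, FOS, FOSB, JUN, JUNB and ATF3 among them, are immediate early genes, transcribed within minutes of growth factor or stress signals, and FOSL1 is known as a gene driven by RAS-ERK signalling in carcinoma cells. Their dimers bind the AP-1 site or the related cyclic AMP response element (CRE).

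The promoters of 5 members with peaks over or beside them are shown. Those of FOSL2 and JUNB, which peaks also overlapped, are not printed. Each line gives the 250 bases before the annotated start from RefSeq (GRCh38.p14), 5′ to 3′ along the gene. Capitals mark matches, on either strand, to the CRE (TGACGTCA), to its core (TGACG), to the wider CRE-like pattern (TGACNTCA) and to 3 elements of general promoters. Of these, the GC box was searched as GGGCGG, the sequence bound by the factor NF-Y as CCAAT, and the element bound by the TATA-binding protein as TATAAA. The CRE core lies inside the full CRE, and the CRE is a case of TGACNTCA.
JUN, chr1:58784048-58784297, minus strand: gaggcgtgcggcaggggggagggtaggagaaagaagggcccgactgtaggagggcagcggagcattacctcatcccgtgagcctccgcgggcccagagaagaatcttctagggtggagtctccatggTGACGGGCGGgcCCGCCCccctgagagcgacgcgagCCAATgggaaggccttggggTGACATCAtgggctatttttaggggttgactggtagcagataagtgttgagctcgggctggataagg
FOS, chr14:75278578-75278827, plus strand: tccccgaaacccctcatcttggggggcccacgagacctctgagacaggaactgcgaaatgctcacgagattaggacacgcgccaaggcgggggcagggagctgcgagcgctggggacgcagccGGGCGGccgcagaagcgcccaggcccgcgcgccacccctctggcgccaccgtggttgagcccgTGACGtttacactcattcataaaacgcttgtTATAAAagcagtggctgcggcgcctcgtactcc
FOSB, chr19:45467746-45467995, plus strand: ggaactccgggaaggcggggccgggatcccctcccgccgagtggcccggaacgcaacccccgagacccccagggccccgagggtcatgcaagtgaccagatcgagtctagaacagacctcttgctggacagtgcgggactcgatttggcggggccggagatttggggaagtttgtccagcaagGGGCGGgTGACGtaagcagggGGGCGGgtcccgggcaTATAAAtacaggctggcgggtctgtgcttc
JUND, chr19:18281623-18281872, minus strand: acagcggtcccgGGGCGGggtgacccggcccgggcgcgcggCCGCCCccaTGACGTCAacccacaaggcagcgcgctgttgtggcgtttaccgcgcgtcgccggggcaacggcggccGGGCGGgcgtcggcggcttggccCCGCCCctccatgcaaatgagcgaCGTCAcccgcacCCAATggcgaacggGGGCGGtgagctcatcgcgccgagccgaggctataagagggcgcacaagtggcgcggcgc
MAFF, chr22:38201744-38201993, plus strand: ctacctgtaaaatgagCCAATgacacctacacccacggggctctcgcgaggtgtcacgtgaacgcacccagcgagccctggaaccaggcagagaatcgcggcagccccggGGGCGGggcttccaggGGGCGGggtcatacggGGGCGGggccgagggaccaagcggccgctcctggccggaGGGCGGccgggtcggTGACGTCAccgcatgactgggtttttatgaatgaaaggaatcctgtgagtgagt

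The promoter table had entries for 9 members, with 11 starts, since ATF3 and MAFF have 2 each; FOSL1 had no entry. The CRE core was present before the start of 7 of the 9 genes, namely FOS, FOSB, FOSL2, JUN, JUNB, JUND and MAFF. Counted by entry it was in 7 of 11, against 21.2% of all 35116 entries of the table. It began 64 bases before the start in FOS, 60 in FOSB and 66 in FOSL2, and thus at nearly the same distance in the 3 FOS family genes with an entry; FOSL2 had another match further upstream. The full CRE was found in JUND and MAFF (1.65% of all entries), and TGACNTCA, a pattern added after the sequences were seen, also in JUN and ATF3 as TGACATCA (6.87% of all entries). The TATA box was found in FOS, FOSB and JUNB, beginning 33, 30 and 31 bases before the start, and in ATF3, beginning 230 bases before a start (10.7% of all entries). The NF-Y sequence was present in 5 genes and 5 of the 11 member entries (32.0% of all entries). The GC box was in 8 genes and 9 of the 11 member entries (42.6% of all entries). The AP-1 site TGANTCA (6.57% of all entries) and the CArG box (1.16%) had no match in these windows.

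The data consisted of 1 peak list per sample. The median summit held 23 fragments in both lists, and the inflachromene library was inferred to hold 0.964 times as many fragments as the DMSO library. Of 8 markers of the pancreatic ductal or epithelial lineage, SOX9 and the adjacent KRT8 and KRT18 carried an end peak in both libraries and KRT19 and MUC1 in DMSO alone, while KRT7, EPCAM and CDH1 had none; of 3 mesenchymal markers VIM had one in both, ZEB1 in DMSO alone and CDH2 in neither. No end peak was called in DMSO at any of 17 acinar, islet, immune, endothelial and fibroblast markers, and in inflachromene only CD14 had one. A peak is not a measure of expression, and the lists do not say which protein was bound.

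Of the 10 AP-1 genes, 8 carried an end peak in both libraries (80.0%, exact Clopper-Pearson 95% interval 44.4 to 97.5), whereas 36.3% of all protein-coding genes did; 45.7% had one in DMSO and 38% in inflachromene. ATF3 and BATF had no end peak in either library, as for 52.6% of all genes. None of the 10 had an end peak in 1 library alone, a class that held 9.41% of all genes for DMSO and 1.69% for inflachromene. The pileup of a summit, meaning the fragments that cover it, was worked out from the deposited values and is given with an exact Poisson 95% interval for counting error only. The library ratios below are inflachromene over DMSO with an exact binomial interval of the same kind.

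**Figure D1:**
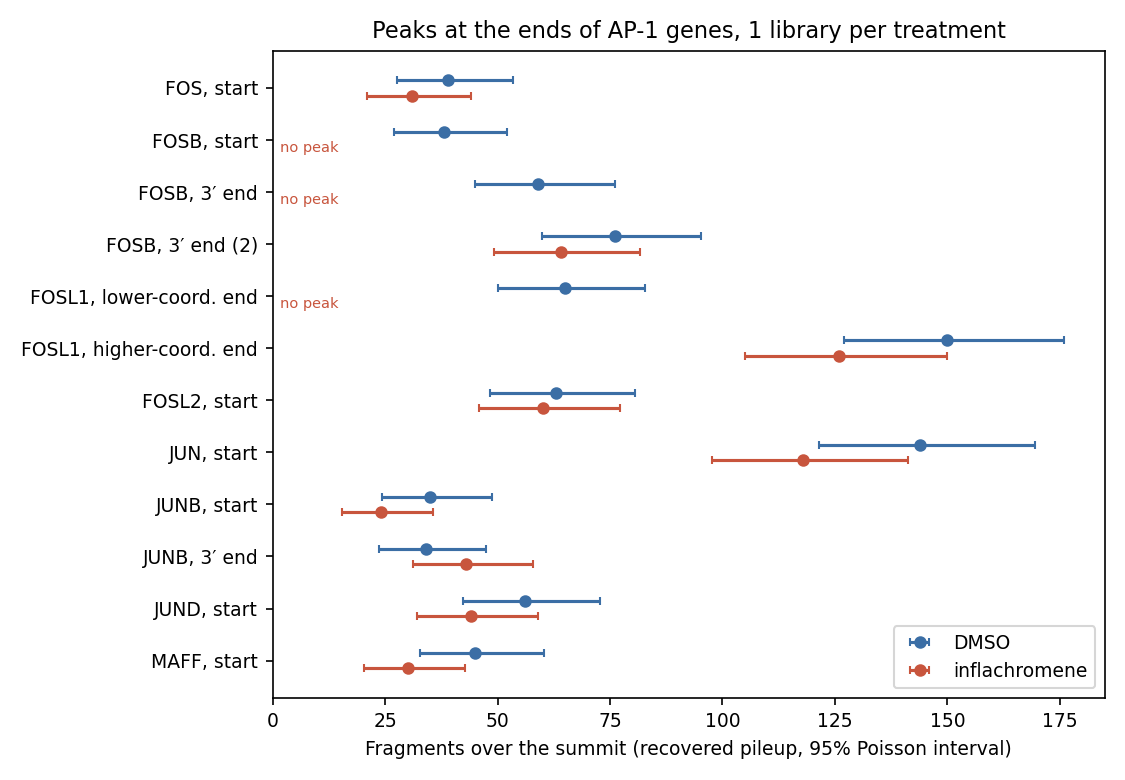
Fragments over the summit of each peak at an end of an AP-1 gene, in DMSO (blue) and inflachromene (red), with 95% Poisson intervals and 1 library per treatment. FOSL1 and JUN stand above the others with 150 and 144 fragments in DMSO, and at 3 positions no inflachromene peak was called.

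JUN, the founding member and a subunit of most AP-1 dimers, lies on chromosome 1 (58780791 to 58784047, minus strand). Its start carried 144 fragments in DMSO (121 to 170) and 118 in inflachromene (97.7 to 141). These were summits of 11.2-fold and 9.57-fold enrichment over the local background, and the DMSO pileup stood at percentile 99.5 of all 8220 DMSO peaks at gene ends. The ratio was 0.819 (0.637 to 1.05), so the counts of the 2 libraries differed by no more than counting error allows. The DMSO peak (58783913 to 58784487) covered the whole printed promoter, and so did the inflachromene peak. In DMSO the summit lay 184 bp before the start and in inflachromene 75 bp before it, just upstream of the TGACATCA that begins 67 bases before it.

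JUNB, which can act against JUN in some settings, lies on chromosome 19 (12791486 to 12793315, plus strand) and carried a peak at each end. With FOSB and FOSL1 it was among 3 of 10 members with more than 1 DMSO summit at their ends, as had 3.6% of all genes. At the start, which it shares with an end of HOOK2, the pileup was 35 fragments in DMSO (24.4 to 48.7) and 24 in inflachromene (15.4 to 35.7). At the 3′ end it was 34 (23.5 to 47.5) and 43 (31.1 to 57.9). The ratios were 0.686 (0.390 to 1.19) and 1.26 (0.788 to 2.04), and the 3′ position was the only AP-1 end with more fragments in inflachromene. The paired 3′ peaks overlapped by 47 bp, with summits 332 bp apart, and may not be the same site.

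JUND, the JUN family gene known for steady expression, lies on chromosome 19 (18279694 to 18281622, minus strand). Its start had 56 fragments in DMSO (42.3 to 72.7) and 44 in inflachromene (32.0 to 59.1), a ratio of 0.786 (0.517 to 1.19). The DMSO peak (18281209 to 18282090) was 882 bp wide, at percentile 98.3 of the shared end peaks, and covered the whole printed promoter with its CRE.

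FOS, the prototype immediate early gene, lies on chromosome 14 (75278828 to 75282230, plus strand). Its start had 39 fragments in DMSO (27.7 to 53.3) and 31 in inflachromene (21.1 to 44.0), a ratio of 0.795 (0.480 to 1.31). The DMSO summit lay 112 bp after the start and the inflachromene summit 53 bp before it, between the CRE core and the TATA box. A peak called in both libraries lay 4949 bp downstream of the start, with 44 and 39 fragments, and thus outside the 1 kb limit, 1547 bp from the 3′ end. Further shared peaks at no other coding gene's end lay 19599 bp upstream (39 and 33 fragments) and 15353 bp downstream (34 and 38). All 4 positions around FOS were therefore called in both libraries.

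FOSB, a paralogue of FOS, lies on chromosome 19 (45467996 to 45475179, plus strand) and had 13 peaks in DMSO and 8 in inflachromene within 50 kb, the most of any member in DMSO; in inflachromene FOSL1 had the most, 10. Its start had 38 fragments in DMSO (26.9 to 52.2), with the summit 263 bp after the start, and no inflachromene peak. The printed FOSB promoter was thus covered by no peak in either library. At the 3′ end 2 DMSO peaks held 59 fragments (44.9 to 76.1) and 76 (59.9 to 95.1), and the latter was shared, with 64 fragments in inflachromene (49.3 to 81.7) and a ratio of 0.842 (0.594 to 1.19). With the window narrowed to 500 bp, or with annotated starts alone, FOSB had an end peak in DMSO only.

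FOSL1, encoding FRA1, lies on chromosome 11 (65892049 to 65900545). Its higher-coordinate end had a summit 10 bp away with the highest pileup of all members, 150 fragments in DMSO (127 to 176) and 126 in inflachromene (105 to 150.02), a ratio of 0.840 (0.658 to 1.07). The lower-coordinate end had 65 fragments in DMSO (50.2 to 82.8) and no inflachromene peak; this summit also lay at an end of CCDC85B and cannot be credited to 1 gene. FOSL2, encoding FRA2, lies on chromosome 2 (28392858 to 28417317, plus strand) and had a single peak in each library, at its start. FOSL2 had 63 fragments in DMSO (48.4 to 80.6) and 60 in inflachromene (45.8 to 77.2). Its ratio, 0.952 (0.657 to 1.38), was the nearest to 1 among the member ends.

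MAFF, a small MAF protein without a transactivation domain, lies on chromosome 22 (38201994 to 38216511, plus strand). The upstream of its 2 listed starts had 45 fragments in DMSO (32.8 to 60.2) and 30 in inflachromene (20.2 to 42.8). Its ratio of 0.667 (0.406 to 1.08) made MAFF the only one of 8 genes whose strongest DMSO end peak had an inflachromene partner at least 1.5-fold lower, against 19% of all 7214 genes with such a pair. The inflachromene summit lay 30 bp before the start, downstream of the CRE that begins 54 bases before it.

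ATF3, a stress-induced gene that can repress its targets, lies on chromosome 1 (212565407 to 212620777, plus strand) and had its strongest peak inside the gene. That peak (212608343 to 212608899) lay 43160 bp from the outermost start and away from both listed starts, with 69 fragments in DMSO (53.7 to 87.3) and 46 in inflachromene (33.7 to 61.4). The ratio there was 0.667 (0.449 to 0.982), with an interval below 1 but holding the ratio of library sizes, 0.964. BATF, known from lymphocytes, lies on chromosome 14 (75522469 to 75546992, plus strand) and had a weak peak inside the gene, 19 fragments in DMSO (11.4 to 29.7) and 17 in inflachromene (9.90 to 27.2). The gene table gives no exons, and transcript starts beyond the listed ones were not searched. Whether these positions are intronic or lie at an unlisted start was therefore not determined.

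In order of the strongest DMSO pileup at an end, the genes ran FOSL1, JUN, FOSB, FOSL2, JUND, MAFF, FOS and JUNB. FOSL1 and JUN, with 150 and 144 fragments, had overlapping intervals, and both lay above the intervals of all other members. From FOSB down, the intervals of each neighbouring pair overlapped. Of 12 DMSO summits at member ends 9 had an overlapping inflachromene peak, beside 76.2% for all genes. At these 9 the pileup was lower in inflachromene at 8, against 76.9% of the 6265 shared end peaks of all genes. Summed over the 9 positions it was 540 against 642 fragments, a ratio of 0.841 (0.749 to 0.945). Over all shared end peaks the same ratio was 0.820 (0.815 to 0.825), within the interval of the members. The median of all shared end peaks, 0.824, lay within the interval of each of the 9. By the deposited fold enrichment, which divides by the local background, 5 of the 9 were lower in inflachromene (median ratio 0.914), against 4859 of the 6265 (median 0.862). On that scale FOS (1.06), JUND (1.03), FOSL2 (1.002) and the 3′ end of JUNB (1.58) lay above 1.

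The lists also hold a broader measure. Backgrounds set by MACS2 beside the summits were whole multiples of a small unit, the amount added by a single fragment end in the surrounding 10 kb, so each could be turned into a count of such ends. The genome-wide mean was 85.5 ends per 10 kb in DMSO and 82.5 in inflachromene. By this measure most AP-1 genes ranked high among genes with an end peak, although several had ordinary summits. In 7 of the 8 genes with an end peak, all but MAFF, the 10 kb count exceeded the 95th percentile of all DMSO end peaks, 667 ends, against 4.77% of all 9133 genes with one. In inflachromene the same 7 exceeded that library's 95th percentile, 577 ends, against 4.77% of genes.

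**Figure D2:**
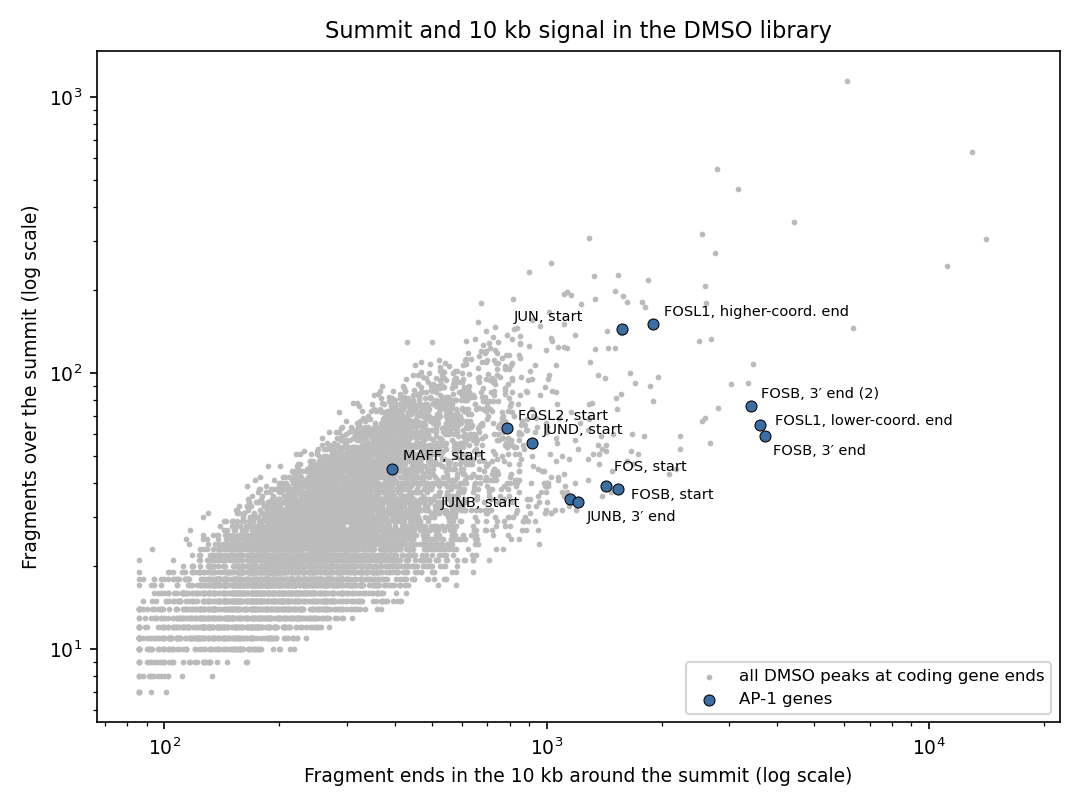
Fragments over the summit against fragment ends in the 10 kb around it, both on log scales, for all 8220 DMSO peaks at coding gene ends (grey) and those at AP-1 genes (blue). FOS, JUNB and FOSB lie at the lower edge of the cloud, with 1426 ends and 39 fragments at FOS, whereas FOSL1 and JUN are high on both axes.

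FOS had 1426 ends in DMSO, 16.7 times the genome mean, and 959 in inflachromene. Only 0.754% of DMSO end peaks had as many or more. Its summit pileup lay at percentile 73.1 of the DMSO end peaks and its 10 kb count at 99.2. The fold enrichment of 3.37, the summit relative to that local background, lay at percentile 0.231, among the lowest called. JUNB was alike, with 1153 ends at the start in DMSO and 801 in inflachromene and a fold enrichment of 3.68 in DMSO, at percentile 0.511. The shared 3′ peak of FOSB had 3425 and 2948 ends, 40.1 and 35.8 times the genome means, with enrichments of 2.84-fold and 2.56-fold. Only 0.0852% of DMSO end peaks reached the highest count at FOSB, 3725 ends at its other 3′ peak. At these 3 genes the fold enrichment thus gave a low rank to positions whose surroundings ranked near the top.

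At JUN the counts were 1572 and 1380 ends, and at the higher-coordinate end of FOSL1 they were 1903 and 1600. Both genes combined a high 10 kb count with a high summit, at 9.74-fold enrichment in DMSO for FOSL1. FOSL2 had 788 and 683 ends and JUND 915 and 614. MAFF had 395 and 296, at percentile 77.9 of the DMSO end peaks and thus nearest to an ordinary gene; 22.1% of those peaks had as many or more. The DMSO windows at FOS, JUNB, the 3′ end of FOSB and the lower-coordinate end of FOSL1 also held other peaks. These were the peak 4949 bp downstream of the FOS start, the other end of JUNB, a second 3′ summit of FOSB and peaks at neighbours of FOSL1. DNA copy number, which differs along the genome of a cancer line, was not measured here. The part of other peaks and of copy number in these counts was not tested. High counts were not limited to member ends. DMSO counts exceeded 667 ends 4949 bp downstream of the FOS start (1688) and at IQCN near JUND (947). Both windows overlap that of the member start, so they share fragment ends with it. Among other positions, the same held 44152 bp upstream of FOSB (692), 40634 bp from FOSL1 (724) and at the strongest peak inside ATF3 (684). Lower counts lay 19599 bp upstream of FOS (420), 32363 bp upstream of JUN (280) and at LSM4 near JUND (188).

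The 10 kb counts were larger than the summit counts and gave narrower intervals, computed on the number of ends divided by 2, since each fragment has 2. Each window was centred on the summit of its own library, and paired summits lay 40 to 332 bp apart at the 9 shared member ends. The windows compared were thus not identical, and the part of this in the ratios was not tested. The 10 kb counts were lower in inflachromene at all 9 shared member ends, as at 84% of all shared end peaks. Of the 1574 shared end peaks with a DMSO count at or above that of MAFF, 1515 were lower. The median ratio was 0.749 at the 9 member ends, 0.872 over all shared end peaks and 0.834 over those 1574. JUNB enters the 0.749 with both of its ends, so fragments of its overlapping windows count more than once there. At JUND the ratio was 0.671 (0.578 to 0.776) and at FOS 0.673 (0.598 to 0.757). At JUNB it was 0.695 (0.610 to 0.790) at the start and 0.711 (0.628 to 0.807) at the 3′ end, in windows that overlap.

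These 4 intervals lay below the medians of 0.872 and 0.834. Among all shared end peaks the values stood at percentiles 2.20 for JUND, 2.28 for FOS, and 3.78 and 5.38 for JUNB. Among the 1574 peaks the percentiles were 1.72, 1.78, 3.37 and 5.53. The other members were near these medians, with 0.861 (0.803 to 0.924) at FOSB, 0.841 (0.764 to 0.924) at FOSL1, 0.867 (0.749 to 1.006) at FOSL2 and 0.878 (0.791 to 0.974) at JUN. MAFF had 0.749 (0.600 to 0.930). The family was therefore not uniform in this measure, and whether the spread among its genes exceeds that between replicate cultures was not tested.

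**Figure D3:**
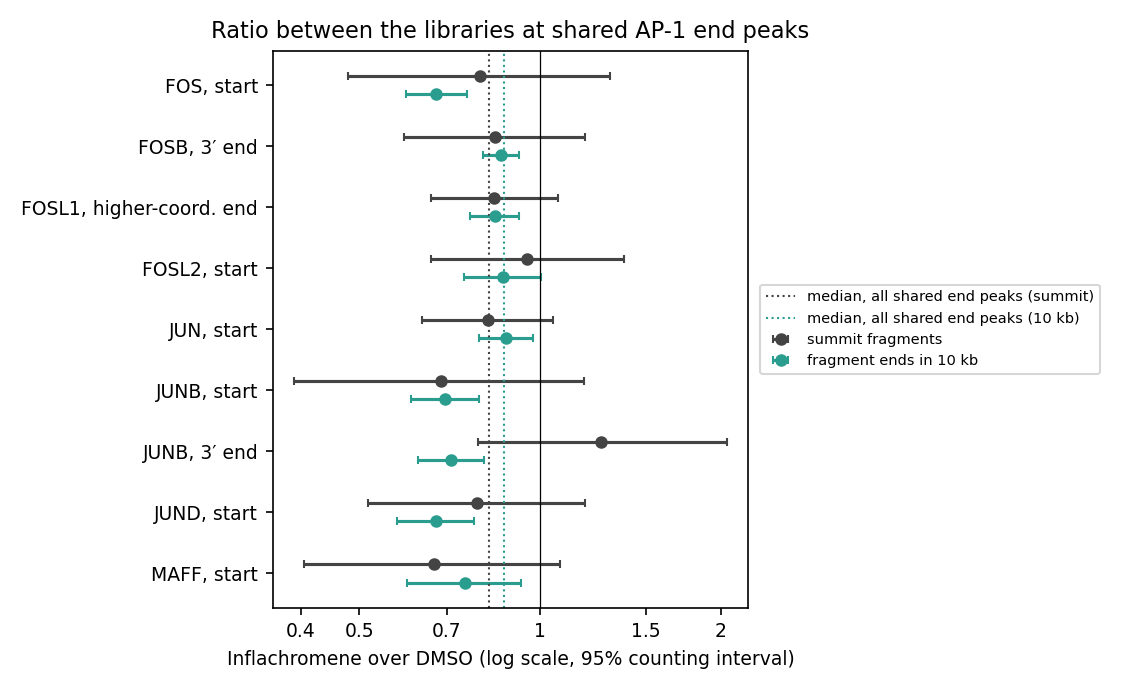
Ratio of inflachromene to DMSO on a log scale at the 9 AP-1 gene ends with a shared peak, for summit fragments (grey) and fragment ends in 10 kb (green), with 95% counting intervals; dotted lines give the medians of all shared end peaks, 0.824 and 0.872. The 10 kb intervals of FOS, JUND and both JUNB ends lie left of the green line.

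Around the genes, 57 positions were called inside a member or within 50 kb of it: 35 in both libraries, 16 in DMSO alone and 6 in inflachromene alone. Of the 51 DMSO positions 68.6% (54.1 to 80.9) had an inflachromene peak, beside 64.5% of all DMSO peaks, and 35 of the 41 inflachromene positions had a DMSO peak, beside 90.4% of all inflachromene peaks. The positions in DMSO alone were weaker, with 14 to 65 fragments and a median of 21.5, against a median of 45 for shared ones. Those in inflachromene alone had 10 to 25 fragments. The members had a median of 3.5 DMSO peaks within 50 kb, where all protein-coding genes had 2.

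**Figure D4:**
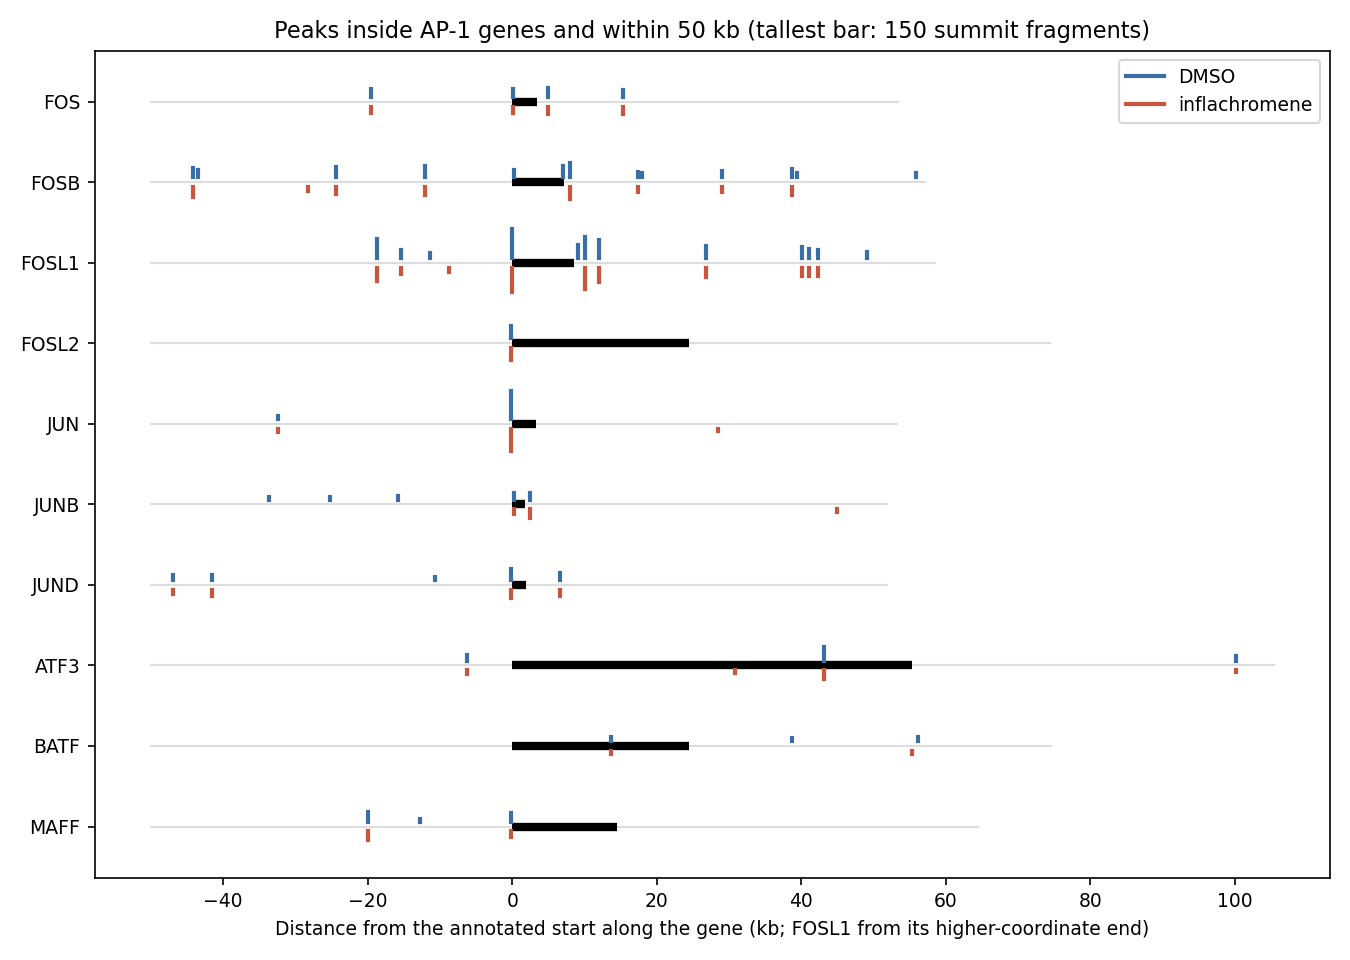
Map of the 57 peak positions around the 10 AP-1 genes (black bars, drawn along the direction of transcription with the start at 0 kb; FOSL1 from its higher-coordinate end). Bars above the line give summit fragments in DMSO and bars below in inflachromene, drawn at the DMSO position where shared; FOSB and FOSL1 have the most positions, 14 and 13, and FOSL2 has 1.

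The neighbourhoods differed between members. FOSL1 lies among CFL1, MUS81, EFEMP2, FIBP, CCDC85B, C11orf68 and DRAP1, and most of its 13 positions lay at ends of these genes. The CCDC85B peak, 1510 bp from the end of FOSL1, held 108 fragments in DMSO and 113 in inflachromene, and the peak at C11orf68 and DRAP1 held 98 and 71. FOSB had shared upstream peaks at no coding gene's end, at 12076 bp (58 and 40 fragments), 24351 bp (56 and 37) and 44152 bp (47 and 50). Only the outer ends of each gene were compared, here and around FOS, so starts of shorter transcripts of neighbouring genes were not checked.

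JUNB had 3 DMSO peaks upstream, of 14 to 20 fragments, none of them called in inflachromene. JUN had a shared peak 32363 bp upstream, with 17 and 16 fragments, and a peak of 10 fragments in inflachromene alone, 28414 bp from its start. JUND had shared peaks at IQCN, 6578 bp downstream of the JUND start (36 and 31 fragments), and at LSM4, 41565 bp upstream (27 and 34). The 10 kb ratio around JUND was 0.743 at IQCN but 1.19 (0.898 to 1.58) at LSM4. Around FOS it was 0.747 and 0.735 at the downstream peaks and 0.876 (0.715 to 1.07) at the upstream peak. The windows at IQCN and at the nearer downstream peak of FOS overlap those of the member starts.

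ATF3 had shared peaks 6321 bp upstream (28 and 21 fragments) and beyond its 3′ end, 100216 bp from the start (22 and 11), where the ratio of 0.5 (0.219 to 1.08) was the lowest of the 35 shared positions. An inflachromene peak of 13 fragments inside ATF3 had no DMSO partner. Upstream of MAFF, a peak at an end of PLA2G6 held 49 and 46 fragments. Over all 35 shared positions the pileup was lower in inflachromene at 28, equal at 1 and higher at 6, against 74.7% lower over all shared peaks. The summed ratio was 0.853 (0.797 to 0.913). Over all shared peaks it was 0.825 (0.821 to 0.829), within the interval of the member positions.

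Other genes of the network were taken from 3 lists. Of 33 further bZIP and dimer partner genes, 14 had an end peak in both libraries, 7 in DMSO alone and 2 in inflachromene alone. Over all protein-coding genes, 9.41% had one in DMSO alone and 1.69% in inflachromene alone. Those 14 genes with one in both were 42.4% of the list (25.5 to 60.8), near the 36.3% of all protein-coding genes. CREB1 (82 and 60 fragments) and ATF2 (79 and 50), encoding CRE-binding proteins, were the strongest in DMSO, followed by NRL (59 and 46, also at an end of DCAF11) and NFE2L1 (59 and 42, also at an end of COPZ2). CEBPB (29 fragments), CEBPA (23), ATF6 (21), NFE2L3 (20), BATF3 (16) and CEBPD (14) were among those with a peak in DMSO alone. MAFK (28) and MAFG (22, also at an end of SIRT7), small MAF genes like MAFF, had one in inflachromene alone.

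Of 24 upstream kinases, inducers and regulators, 16 had an end peak in both libraries (66.7%, 44.7 to 84.4), beside 36.3% of all protein-coding genes. They included RPS6KA5 (76 and 84 fragments, also at an end of DGLUCY), ELK1 (69 and 69, also at UXT) and SRF (66 and 52), the serum response factor that binds the FOS promoter. COPS5 (26) and MAP2K2 (15) were among those with one in DMSO alone, and MAPK9 (20), encoding a JUN kinase, had one in inflachromene alone. Of 28 genes known as AP-1 targets, 11 had an end peak in both libraries (39.3%, 21.5 to 59.4), again near the share of all genes, with DUSP1 (79 and 82) and PHLDA1 (74 and 63) the strongest in DMSO. HMGA1 (31, also at an end of LOC124901225) and EGFR (22) had one in DMSO alone, and PLAU (28), encoding urokinase, in inflachromene alone.

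The median ratio of the strongest paired end peak was 0.807 over the 8 AP-1 genes, 0.723 over 14 bZIP genes, 0.835 over 16 upstream genes and 0.952 over 11 target genes, beside 0.821 over all 7214 genes. The 10 kb count exceeded the 95th percentile of DMSO end peaks at 7 of 13 target genes with an end peak, among them DUSP1 (1894 ends) and PHLDA1 (914). It did so at 1 of 21 bZIP genes, DDIT3 (752), and at 0 of 19 upstream genes, beside 4.77% of all 9133 genes with an end peak. The high 10 kb count seen at the AP-1 genes was thus also present at several listed targets, and no test between the lists was made.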

How the data were processed

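Each sample had its own list of narrow peaks. The tools were MACS2 and deepTools 3.5.6 and the build hg38, per the submitters' processing notes; no aligner, MACS2 version or filter is given in the sources used here. The authors' peak lists hold, per peak, the deposited fold enrichment at the summit (a ratio to local background), the deposited −log10 p and −log10 q at the summit, and a deposited integer score that was not used. Total depth is unknown.

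Fold enrichment and −log10 p together fix a whole-number pileup, matched within 0.001 for all 15186 and 10836 peaks on chromosomes 1 to 22 and X; in 2000 simulated summits all were recovered, a test of the arithmetic only. The backgrounds below 6 were whole multiples (within 0.05) of 1 step in 100% of 14476 and 10413 peaks, with fragment lengths of 152.4 and 165.7 bp and no separate control inferred. Genes were the RefSeq GRCh38.p14 table, with the coordinates of hg38 on these chromosomes; all listed symbols matched. Peaks overlapping by at least 1 bp were shared. The members and lists were chosen with earlier results of these data known. Alternatives were the window, start alone, −log10 q of at least 5, equal list lengths, overlap rules, distances, scaling and fold enrichment; the 10 kb count was added after the data were seen. Named genes of the other lists were the 3 with the highest DMSO pileup among those with an end peak in both libraries, ties included, and up to 6 with one in 1 library alone, plus for JUN and FOSL1 the gene nearest in log2 pileup of both libraries; DDIT3 was named after its value was seen. Some genes that this rule names are not reported here. Python 3.11.15, SciPy 1.17.1 and pandas 2.3.3 were used.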

Additional observations from a re-analysis of the deposited data

How the results depend on the processing

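With a window of 500 bp or with annotated starts alone, 1 AP-1 gene, FOSB, had an end peak in DMSO alone, where the main rule gave 0. FOSL1 could not enter the count by starts. With both lists held to the length of the shorter, 2 genes, FOS and JUNB, had one in inflachromene alone, since their weak −log10 p fell below the limit in DMSO. In that setting 88.2% of the DMSO peaks near members were shared, and of the 85 network genes 6 in place of 12 had an end peak in DMSO alone and 8 in place of 4 in inflachromene alone. Within 20 kb there were 32 DMSO and 25 inflachromene peaks, and within 100 kb 77 DMSO peaks. The summed ratio was 0.923 by fold enrichment in place of 0.853 by pileup. The other alternatives stayed within 1.5 times the main count or within its interval. No paired analysis was possible because each treatment had 1 sample. Depth limits single summits: 0 of the 9 pileup ratios at member ends had an interval below 1.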

Other observations

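The summits at AP-1 starts did not lie at the same base in both libraries, a pattern noticed after the values were seen. Among the 5 members with 1 listed start and a shared peak there, the inflachromene summit was nearer the start in 5. It moved by 222 bp at JUNB, 165 bp at FOS, 109 bp at JUN, 108 bp at JUND and 70 bp at FOSL2. Over all 4340 such genes the inflachromene summit was nearer in 47.4%, and the median shift was 36 bp. FOSL1, with no listed start, went the other way at its higher-coordinate end. The DMSO summit lay 10 bp from that end and the inflachromene summit 40 bp further away. MAFF, with more than 1 listed start, went the same way as the 5, with summits 107 and 30 bp before its upstream start. Of the 9 shared member end peaks 6 were wider than the median of all shared end peaks, 390 bp; the part of peak width in these shifts was not tested.

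By both summit pileups, over 2 libraries, the gene most like JUN was MBOAT7 (140 and 114 fragments), with another gene at the same distance. EDEM1 was most like FOSL1 (148 and 124). The distance was taken between log2 pileups.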
